A study of Mus musculus with 18 samples.

Results

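Mouse embryonic stem cells that differentiated into spinal neurons under the transcription factor HOXC10 were compared with the progenitors present before HOXC10 was switched on. The comparison rests on 6 of the 18 RNA-seq libraries of the series, 3 of iHoxc10 neurons at day 4 and 3 of progenitors at day 2. A further 3 libraries, of day 4 neurons differentiated without doxycycline (Dox), served to separate changes that control differentiation also made from those that it did not. All genes counted in the deposited files were members, and 20944 of 27179 had at least 1 count in a Hox-induced library and were tested.

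All cultures received 1 µM all-trans retinoic acid (RA) and 0.5 µM smoothened agonist (SAG), a Hedgehog pathway activator, from day 0. The day 2 progenitors came from the iCre line, without Dox. The control neurons came from the iHoxc6 line, left without Dox to day 4. The iHoxc10 neurons came from a line that carries 1 copy of a Dox-inducible, Flag-tagged Hoxc10 at the Hprt locus, and they received 3 µg/ml Dox for 48 h, from day 2 to day 4. Each group was therefore a single engineered line, and the study describes its 3 replicates as independent differentiations. The iHoxc9 neurons, made in the same way from a line with an inducible Hoxc9, were used where a second Hox-induced line from the same sequencing run was needed.

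RA and Hedgehog signals turn such cultures into ventral spinal progenitors and then into motor neurons (MNs) and some interneurons. Hox genes of paralog groups 4 and 5 mark cervical, 6 to 8 brachial, 9 thoracic and 10 lumbar levels of the spinal cord. In the embryo, limb-innervating lateral motor column MNs are known for high FOXP1 and ALDH1A2, while LHX3 and LHX4 mark the axial median motor column. HOXC10 belongs to the group that specifies lumbar, limb-level fates.

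Depth was even, with 29033543 to 31966163 counts in the day 2 libraries, 26114986 to 30757593 in the control libraries and 26208886 to 28346760 in the iHoxc10 libraries. Levels are given as CPM (counts per 1000000 counts of the library) on edgeR's normalised library sizes, and 3 counts, taken as the detection floor, correspond to between 0.0883 and 0.122 CPM over the 18 libraries. Day 2 replicate 3 stood apart from the other day 2 libraries (r = 0.984 and 0.987 on log2(CPM + 1), against 0.997 for replicates 1 and 2), while the iHoxc10 libraries correlated at 0.996 to 0.998. In day 2 replicate 2 a single gene without a symbol took 5.76% of the counts. Flow cell labels put the day 2 libraries in one run, the control libraries in a second run with iHoxc6, and the iHoxc10 libraries in another run with iHoxc9. For iHoxc10 against day 2, the day, the cell line and the run cannot be told apart, and for iHoxc10 against control the line and the run cannot be told apart from the induction. RNA was taken from whole cultures, so fewer cells of a type and less RNA per cell cannot be told apart in any result.

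The induced gene was first examined in every library. Hoxc10 (Entrez 209448; GRCm38 chr15:102966796-102971898) read 432, 425 and 433 CPM in the 3 iHoxc10 libraries. Not a single count was found in the 3 day 2 or the 3 control libraries, and the iHoxc9 libraries held 0, 0.353 and 0.0398 CPM. The iHoxc10 level was at least 4380-fold higher than day 2, taking 3 counts in each day 2 library, on average 0.0982 CPM, as the floor. Reads from the transgene and from the endogenous gene share this row of counts and cannot be told apart.

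Differentiation under HOXC10 changed 3920 genes, 18.7% of those tested, at an adjusted p under 0.01 and an absolute log2 fold change above 2 in edgeR's quasi-likelihood test with Benjamini-Hochberg adjustment, the rule behind "rose" and "fell" against day 2 from here on. Of these, 1912 rose (9.13% of the genes tested) and 2008 fell (9.59%). Without Dox, 2630 genes changed (12.6%), of which 1411 rose (6.74%) and 1219 fell (5.82%). The rise of 1258 genes was called in both iHoxc10 and control neurons, and a fall was called in both for 1049. Both comparisons use the same 3 day 2 libraries, so part of their common calls is shared by construction.

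Another 654 genes rose under HOXC10 without being called higher in control neurons. The direct comparison of iHoxc10 with control, which tests the difference itself, was past an adjusted p of 0.01 in the same direction for 354 of them (1.69% of all genes tested), and was not past it for the other 300. Likewise, 959 genes fell under HOXC10 without being called lower in control neurons, with 399 (1.91%) past the test of the difference and 560 not. Most of the 354 and the 399 moved in the same direction in control neurons by a smaller amount, since control also differed from day 2 at adjusted p under 0.01 in 254 and 278 of them. The count of 399 depended on a single library and was 239 without iHoxc10 replicate 1. Fitting the day 2, control and iHoxc10 libraries alone gave 188 and 255 genes in place of 354 and 399. By the full call rule, iHoxc10 was higher than control in 0.773% and lower in 0.711% of the genes tested. Conversely, 47 genes rose (0.224%) and 21 fell (0.1%) in control neurons but not under HOXC10, with the difference past the test. The 21 became 11 without control replicate 3 and 13 without iHoxc10 replicate 2.

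**Figure D1:**
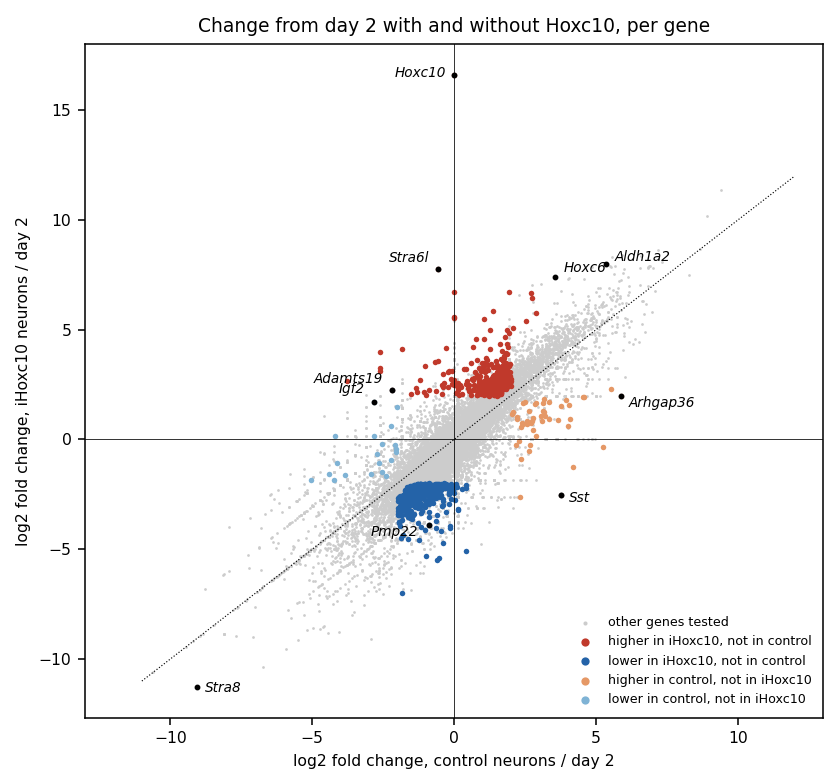
Log2 fold change from day 2 for each gene tested, in control neurons (x axis) and iHoxc10 neurons (y axis), with the dotted line marking equal change and both axes sharing the day 2 libraries. Coloured points are the 354 and 399 genes that changed in iHoxc10 and not in control neurons and the 47 and 21 of the reverse pattern, and named genes are in black. Hoxc10, Stra6l and Adamts19 lie far above the line and Sst and Arhgap36 far below it.

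Apart from Hoxc10, the leading rises at 5 CPM or more were those of Fxyd7, a Na,K-ATPase regulator of brain, Tnr, which encodes the matrix protein tenascin-R, Ecel1, an endopeptidase of peripheral-projecting neurons, and Islr2, a membrane protein of growing axons. Fxyd7 was absent from the 3 day 2 libraries and read 9.77, 14.9 and 8.99 CPM in iHoxc10 neurons, at least 114-fold above the floor. Control neurons held 5.01, 1.46 and 2.13 CPM of it, all below the iHoxc10 values. Tnr had 1 count in the day 2 group against 22.1, 18 and 12.9 CPM in iHoxc10 neurons, a ratio of 1620 with a 95% counting interval of 291 to 64000. Ecel1 read 248, 284 and 245 CPM in iHoxc10 neurons against 0.404, 1.07 and 0.437 at day 2, a log2 fold change of 8.67 ± 0.27 (SE, n = 3; edgeR adjusted p = 1.95e-16). The control libraries held 292, 207 and 270 CPM and overlapped with iHoxc10 (difference 0.02 ± 0.18, edgeR adjusted p = 1.0).

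Islr2 read 630, 703 and 524 CPM in iHoxc10 neurons against 1.28 to 1.96 CPM at day 2 and 195 to 272 CPM in control neurons, so the groups did not overlap. Other genes among the leading rises were Siah3, Bcl11a, Scg2, Aldh1a2 and Cbln4, with log2 fold changes of 7.89 to 8.37. The transcription factor gene Bcl11a read 37.1, 39.3 and 31.6 CPM in iHoxc10 neurons, 3.59 to 7.16 CPM in control neurons and 0.0998 to 0.125 CPM at day 2. Cbln4, a synapse organiser, read 18.2, 20.5 and 11.0 CPM against 1.27 to 5.20 CPM in control neurons.

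The largest fall was that of Stra8, a gene that retinoic acid induces in the germ line. It read 145, 120 and 226 CPM at day 2 and 0.105, 0.0358 and 0.0405 CPM in iHoxc10 neurons, a log2 fold change of -11.28 ± 0.39 (edgeR adjusted p = 4.87e-16). Control neurons were also near the floor, at 0.225, 0.231 and 0.449 CPM. Kynu, which encodes kynureninase, went from 5.93 to 8.03 CPM at day 2 to no count in the 3 iHoxc10 libraries, at least 59.8-fold lower. Gbp2, an interferon-inducible GTPase gene, was at least 49.9-fold lower and also had no count. The signalling adaptor Grb7 fell from between 11.1 and 32.1 CPM to between 0.035 and 0.122 CPM. The fall of ccdc198, from 147, 145 and 63.3 CPM to 0.105, 0.322 and 0.446 CPM, was larger than in control neurons, which held 2.79 to 4.19 CPM (log2 difference -3.51 ± 0.40, edgeR adjusted p = 2.3e-06). Of the remaining 5 leading falls, Gm4340, Gm21293, Gm21304, Gm21312 and Gm20765 belong to one multi-copy family; the last 4 carry identical counts in all libraries and count as 1 observation.

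Genes of the axon and of transmitter release rose almost as a block. Of 27 axonal cytoskeleton and growth cone genes, 25 rose under HOXC10 and 23 in control neurons, with none lower, and their median log2 fold change was 4.11 under HOXC10 and 3.64 in control neurons, against a median of 0 over all genes. Dpysl2 (1.73 ± 0.12) and Nrcam (1.39 ± 0.17) were past the adjusted p but not the fold threshold. Mapt, which encodes the microtubule protein tau, read 989, 1050 and 908 CPM in iHoxc10 neurons, 562, 443 and 456 CPM in control neurons and 7.01, 14.8 and 6.40 CPM at day 2. The 3 groups of Mapt values did not overlap, and the difference from control was 1.01 ± 0.21 (edgeR adjusted p = 0.00101). Doublecortin (Dcx), of migrating young neurons, read 1740, 1350 and 1180 CPM against a control mean of 698 CPM (edgeR adjusted p = 0.00568, and 0.0129 to 0.0414 without control replicate 1 or 3 or iHoxc10 replicate 1 or 2), and the microtubule gene Map1b 3920, 3300 and 3230 CPM against 1310 CPM. Neuronal tubulin (Tubb3) also rose, from a mean of 225 CPM to 3200, 3520 and 4500 CPM, but its difference from control was 0.35 ± 0.20 and not past the test (edgeR adjusted p = 0.238).

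In direct comparison, 14 of the 27 cytoskeletal genes were higher in iHoxc10 neurons and none lower, taking differences from control at an edgeR adjusted p below 0.01 without a fold threshold, beside 6.67% of all genes higher and 7.75% lower by that rule. With a correction for exon length, described further on, 10 were higher and 1 lower. The summed level of the list was 28210, 26800 and 28420 CPM in the iHoxc10 libraries, above 19510, 19820 and 18190 CPM in control neurons and 20160, 19090 and 21310 CPM in iHoxc9 neurons of the same run. Day 2 progenitors held 1723, 2295 and 1436 CPM. Against iHoxc9, 5 of the 27 were higher and none lower, where 2.4% of all genes were higher and 2.6% lower. Libraries of iHoxc9 and iHoxc10 with the same replicate number deviated together, and the pair of groups fitted alone with the replicate as a block gave 2875 genes higher (14.3%) and 2932 lower (14.6%) in place of 502 and 544. In that fit 22 of the 27 were higher and 2 lower. The 544 also fell to 342, 325 and 288 without iHoxc10 replicate 1, 2 and 3.

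Of 27 synaptic release genes, 25 rose under HOXC10 and 22 in control neurons, with medians of 3.64 and 2.93. Syt1, the calcium sensor of vesicle fusion, read 95, 87.2 and 76.0 CPM in iHoxc10 neurons against a mean of 40.6 CPM in control and 3.20 CPM at day 2 (difference from control 1.08 ± 0.15, edgeR adjusted p = 2.52e-05). The vesicle protein gene Sv2a (103, 114 and 99.5 CPM) and the vesicle GTPase genes Rab3a (191, 190 and 221 CPM) and Rab3c (129, 119 and 77.7 CPM) were likewise above control means of 47.7, 124 and 36.9 CPM. In all, 15 of the 27 were higher than control and none lower. Rims2 and Cplx2 had log2 fold changes from day 2 of 1.68 and 1.20, below the threshold.

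Of 28 voltage-gated channel genes, 21 rose under HOXC10 and 11 in control neurons, with medians of 2.45 and 1.77 and none lower. The difference itself was past the test in 9 of the 28, all higher in iHoxc10. The potassium channel gene Kcnd2 had 2 counts over the day 2 group, a control mean of 0.413 CPM and 4.80, 5.27 and 2.84 CPM in iHoxc10 neurons (difference from control 3.33 ± 0.37, edgeR adjusted p = 1.36e-06). The sodium channel subunit gene Scn3b read 172, 165 and 129 CPM against 80.4 CPM in control, and the calcium channel gene Cacna1h 136, 146 and 102 CPM against 53.1 CPM. With the correction for exon length, 15 of the 28 rose.

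**Figure D2:**
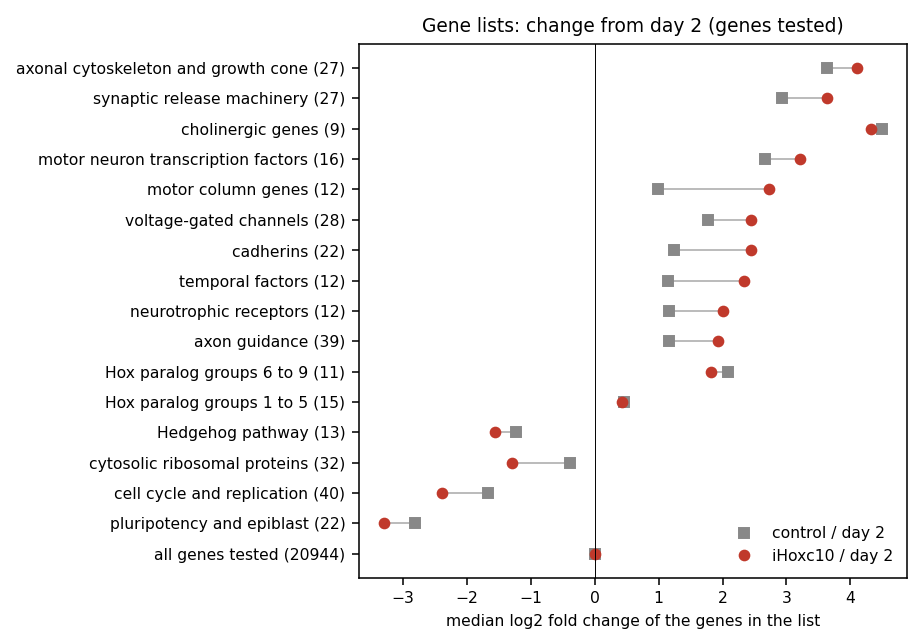
Median log2 fold change from day 2 over the tested members of 16 gene lists and over all 20944 genes tested, for control neurons (grey squares) and iHoxc10 neurons (red circles). Medians lie at 4.11 for the axonal cytoskeleton and at -3.30 for pluripotency and epiblast genes under HOXC10, beside 0 for all genes.

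Cell cycle genes fell further under HOXC10 than in control neurons. Of 40 cell cycle and replication genes, 30 fell and none rose, against 7 that fell in control neurons, and the medians were -2.39 and -1.67. All 40 were lower than day 2 at the adjusted p alone. The difference from control was past the test in 19 genes, all lower in iHoxc10, and 15 of the 40 are among the 399. Of the 19, Ccna2, Ccnb1, Cdc20, Cdc25c, Cdk2, Mcm5, Mybl2 and Orc1 were not past the test without certain single libraries (edgeR adjusted p = 0.0102 to 0.0547). Pcna, the replication clamp, read 70.6, 72.9 and 75.8 CPM in iHoxc10 neurons, 171, 154 and 190 CPM in control neurons and 772, 706 and 375 CPM at day 2, with no overlap between the groups (difference from control -1.23 ± 0.18, edgeR adjusted p = 3.71e-05). The mitotic kinase gene Cdk1 read 27.8, 33 and 35.6 CPM against 77.8, 78.2 and 89.2 CPM in control neurons. Cenpa, the centromeric histone variant, read 23.9, 26.5 and 29.2 CPM against 64.7, 69.3 and 84.7 CPM. The S-phase cyclin Ccne2 fell from 55.0 CPM to between 2.59 and 3.87 CPM, with a control mean of 9.24 CPM.

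Summed over the 40 genes, the level was 8532 to 8968 CPM at day 2, 2232 to 3864 CPM in control neurons and 1654, 1752 and 2131 CPM in iHoxc10 neurons. Levels in iHoxc9 neurons were between 2456 and 2798 CPM, and 7 of the 40 genes were lower in iHoxc10 than in iHoxc9, with Ccnd1 alone higher. The replicate block gave 36 lower and 1 higher. Without the block, the calls of all 7, Tyms, Cdk1, Cdk2, Bub1, Birc5, E2f1 and Cenpa, were lost on leaving out 1 or more iHoxc10 replicates (edgeR adjusted p = 0.0104 to 0.0647). Ccnd1, the cyclin of G1 entry, read 13.7, 17.1 and 20 CPM in iHoxc10 and 1.02 CPM on average in iHoxc9 neurons.

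Among 12 cell cycle exit genes, Cdkn1c was the gene that rose under HOXC10. This CDK inhibitor, an imprinted gene, read 172, 210 and 231 CPM in iHoxc10 neurons, above 29.7, 38.7 and 63.2 CPM at day 2 and 33.3, 19 and 31.3 CPM in control neurons (difference from control 2.87 ± 0.25, edgeR adjusted p = 5.62e-08). It shares 30.7% of its exon bases with an unnamed gene model, Gm44732. Levels of 53.5, 66.8 and 62.9 CPM in iHoxc9 neurons were also below those of iHoxc10.

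**Figure D3:**
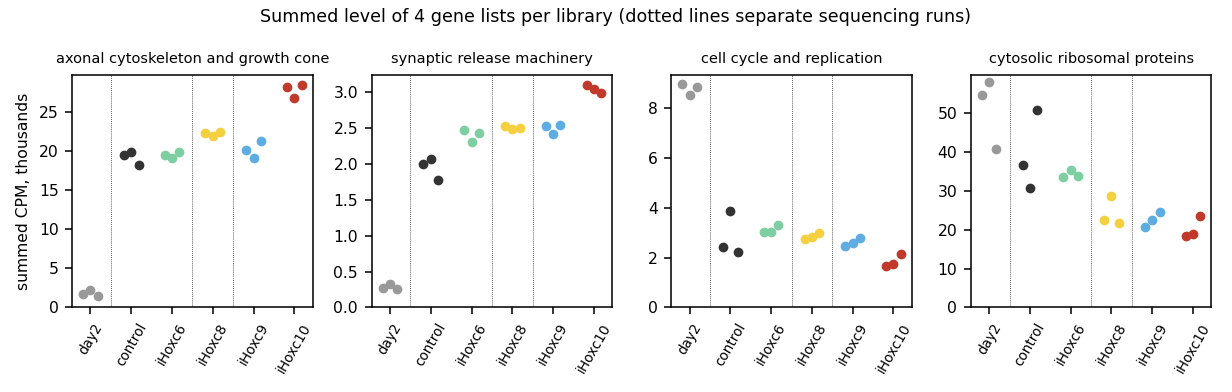
Summed CPM on a linear axis (marked per 1000 CPM) of 4 gene lists in each of the 18 libraries, with dotted lines between sequencing runs. The iHoxc10 libraries are the highest for cytoskeletal (26800 to 28420 CPM) and synaptic genes and the lowest for cell cycle genes (1654 to 2131 CPM), and for ribosomal proteins both lines of their run, iHoxc9 and iHoxc10, lie at or below 24610 CPM, as do iHoxc8 replicates 1 and 3 of another run (22390 and 21760 CPM).

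Pluripotency and epiblast transcripts fell in both kinds of neuron. Of 22 such genes tested, 16 fell under HOXC10 and 13 in control neurons, and none rose. Sall4 went from 57.1 CPM to 8.58, 5.30 and 7.05 CPM and Lin28b, a repressor of let-7 maturation, from 100.0 CPM to 23.2, 16.8 and 17.4 CPM, and neither differed from control past the test (edgeR adjusted p = 0.535 and 0.759). Lin28a fell from 331 CPM to 66.9, 56.2 and 91.7 CPM and was lower than in control neurons, whose mean was 136 CPM (edgeR adjusted p = 0.000755). Pou5f1, which encodes OCT4, was already at 0.3 to 2.37 CPM at day 2 and had 1 count over the iHoxc10 libraries.

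Of 15 ventral progenitor factors, 4 rose and 5 fell under HOXC10, against 3 and 3 in control neurons. Pax6, of more dorsal progenitors, fell from 122, 92.5 and 87.5 CPM to 3.36, 2.87 and 4.46 CPM, below the control values of 6.49, 11.2 and 8.35 CPM. Nkx2-9, of the most ventral progenitors, fell from 39.4 to 47.1 CPM to between 0.215 and 0.525 CPM. Olig2, the MN progenitor factor, read 30.3, 23.3 and 38.3 CPM against a day 2 mean of 91.6 CPM (log2 fold change -1.58, short of the fold threshold) and was lower than control at a difference of -1.26 ± 0.27 (edgeR adjusted p = 0.00148, and 0.0134 and 0.0142 without control or iHoxc10 replicate 2). Its neighbour Olig1 fell, to 2.35, 1.83 and 3.44 CPM, while control neurons held 8.42, 24.3 and 10.2 CPM, all above iHoxc10.

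Sim1, a V3 interneuron factor, rose from a day 2 mean of 0.066 CPM to 4.87, 7.63 and 3.44 CPM, with 0.739, 0.308 and 0.337 CPM in control neurons (difference 3.49 ± 0.36, edgeR adjusted p = 4.9e-07), and its level in iHoxc9 neurons was higher still, at 15.2 to 19.6 CPM. Nkx2-2 of the V3 progenitor domain rose to 18.2, 20.7 and 18.2 CPM from 4.24 CPM. Among 31 spinal interneuron factors, 6 rose and 4 fell, against 5 and 1 in control neurons. Dmrt3, of dorsally derived commissural neurons, read 16.1, 16.0 and 17.1 CPM in iHoxc10 neurons and between 2.32 and 4.26 CPM in the day 2, control and iHoxc9 libraries, without overlap (difference from control 2.56 ± 0.20, edgeR adjusted p = 6.8e-09). Tlx3 and Shox2, of dorsal and other excitatory interneurons, stayed at or below 1.07 CPM in iHoxc10 neurons against means of 6.40 and 5.45 CPM in iHoxc9 neurons.

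General MN genes were induced with or without HOXC10. Of 16 MN transcription factors, 11 rose under HOXC10 and 10 in control neurons. Isl1 read 136, 123 and 120 CPM and Mnx1 56.8, 65.4 and 64.9 CPM, from day 2 means of 13.1 and 4.10 CPM, and neither differed from control past the test (edgeR adjusted p = 0.274 and 0.0685). The acetylcholine genes Chat, Slc18a3, Slc5a7 and Ache also rose in both. Chat, the synthesising enzyme, read 33.7, 28.7 and 21.6 CPM against 40.4, 28.6 and 39.6 CPM in control neurons and 0.344 to 1.33 CPM at day 2, so the iHoxc10 and control libraries overlapped.

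Against control, 4 of the 16 MN transcription factors were higher in iHoxc10 neurons and 3 lower. Of 9 cholinergic genes, 1 was higher and 3 were lower. Several MN genes that were lower than control follow. Isl2, of differentiating MNs, read 6.09, 7.13 and 9.12 CPM in iHoxc10 neurons against 40.5, 46.2 and 49.6 CPM in control and 42.1 to 48.7 CPM in iHoxc9 neurons (difference from control -2.61 ± 0.24, edgeR adjusted p = 6.99e-08). Lhx4 read 15.5, 14.8 and 18.7 CPM against 46.5, 53.3 and 55.1 CPM, and Lhx3 15.8, 21.1 and 29.6 CPM against 67.7, 68.4 and 68.9 CPM. Both LIM factors still rose from day 2, by 3.22 and 2.31 on the log2 scale. Lhx3 was not distinguished from iHoxc9, which held 26.8 to 35.7 CPM (edgeR adjusted p = 0.203) except with the replicate block (edgeR adjusted p = 1.05e-09). The neurofilament gene Prph followed, at 31.6, 40.7 and 36.9 CPM against 112 to 163 CPM in control neurons. Nicotinic receptor subunits Chrna3 and Chrnb4 were lower in iHoxc10 than in the day 2, control and iHoxc9 libraries, at 10.4 to 13.1 and 3.68 to 4.66 CPM.

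Of 12 motor column genes, 7 rose against 4 in control neurons, and 6 were higher than control with none lower, namely Foxp1, Aldh1a2, Nr2f2, Nos1, Gfra1 and Ret. The difference of Nr2f2 was not past the test without control replicate 3 or iHoxc10 replicate 1 or 2 (edgeR adjusted p = 0.0101 to 0.0154), and those of Etv4, Pou3f1 and Epha4 were not past it with all libraries. Foxp1 (GRCm38 chr6:98925342-99522746) read 274, 245 and 191 CPM in iHoxc10 neurons, 74.7, 51.1 and 46.3 CPM in control neurons, 111, 93.8 and 101 CPM in iHoxc9 neurons and 36.6, 33.9 and 39.2 CPM at day 2. All iHoxc10 values lay above all others, with a rise from day 2 of 2.69 ± 0.19 (edgeR adjusted p = 2.43e-11) and a difference from control of 2.05 ± 0.18 (edgeR adjusted p = 6.21e-08). Lhx1, an MN transcription factor of the lateral division of the lateral motor column, read 77.1, 66.2 and 55.3 CPM against 15.2, 12.2 and 15.1 CPM in control neurons and 3.76 to 4.06 CPM in iHoxc9 neurons. Its difference was 2.22 ± 0.15 from control and 4.10 from iHoxc9 (edgeR adjusted p = 8.08e-10 and 7.83e-14). Gfra1, the GDNF co-receptor, read 172, 132 and 158 CPM against 33, 43.4 and 32.3 CPM in control neurons. Foxp1 and Gfra1 belong to the 354 genes; Lhx1 and Aldh1a2 do not, because they also rose in control neurons.

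Aldh1a2 (GRCm38 chr9:71215789-71296243) encodes the enzyme with which limb-level MNs make retinoic acid. It read 203, 185 and 163 CPM in iHoxc10 neurons against 35, 27.5 and 24.7 CPM in control, 19.4, 27.0 and 18.5 CPM in iHoxc9 and 0.775, 0.533 and 0.812 CPM in day 2 libraries. The rise from day 2 was 8.01 ± 0.30 and the difference from control 2.66 ± 0.22 (edgeR adjusted p = 1.01e-15 and 1.6e-08), with a further difference of 3.08 from iHoxc9 (edgeR adjusted p = 1.98e-09). Stra6l (Entrez 74152; GRCm38 chr4:45824293-45887010), a retinol transporter gene, was the strongest gene after Hoxc10 among the 354. It was at 0.0998 to 0.125 CPM at day 2 and at 0.0321, 0 and 0.187 CPM in control neurons, and at 24.4, 25 and 24.1 CPM in iHoxc10 neurons (difference from control 8.33 ± 0.38, edgeR adjusted p = 1.68e-12). The iHoxc9 libraries held more, 56.0 to 62.7 CPM, without overlap with iHoxc10. Sst (Entrez 20604; GRCm38 chr16:23889573-23891342), which encodes the peptide somatostatin, moved the other way, and its values follow with the genes that fell.

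Upstream sequence of these 3 genes is shown because Stra6l and Sst had, after Hoxc10, the largest differences from control among the 354 and the 399, and Aldh1a2 was a leading rise that also differed from control. It is RefSeq promoter sequence of GRCm38.p6, 5′ to 3′ on the strand of the gene, from the 250 bases before the start that the promoter set uses. Each stretch is printed up to the first base that GENCODE annotates as exon, and for Sst the 30 bases around one match are shown instead. For Stra6l and Sst the start used lies inside the RefSeq span of the gene, and so do the bases shown. Those of Sst also lie within its first exon in GENCODE. Whether the Stra6l stretch lies before the GENCODE gene or between its exons was not examined. Capitals mark TTTAT, the core of posterior HOX sites, or its complement ATAAA, and TGACGTCA, the cAMP response element.
Stra6l, chr4:45848566-45848663, plus strand: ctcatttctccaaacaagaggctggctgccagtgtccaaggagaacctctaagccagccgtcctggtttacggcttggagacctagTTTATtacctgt
Aldh1a2, chr9:71215539-71215788, plus strand: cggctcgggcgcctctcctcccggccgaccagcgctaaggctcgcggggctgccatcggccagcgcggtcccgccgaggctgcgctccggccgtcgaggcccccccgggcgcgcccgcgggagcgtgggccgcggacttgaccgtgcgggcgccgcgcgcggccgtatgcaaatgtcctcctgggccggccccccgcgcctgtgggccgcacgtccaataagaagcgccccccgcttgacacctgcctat
Sst, chr16:23890874-23890903, minus strand: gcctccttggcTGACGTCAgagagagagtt

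The 250 bases of Stra6l held 2 matches of TTTAT or ATAAA, 1 of them in the printed part, those of Aldh1a2 none at a G and C share of 77.6%, and those of Sst 1 ATAAA and 1 TGACGTCA that begins 48 bases before the start. Promoters of 14824 of the 20944 genes could be matched, and 27.5% of them held TTTAT or ATAAA. The share was 22.6% of the 257 matched among the 354 genes that rose and 23.4% of the 252 matched among the 399 that fell, both near or under that of all promoters. The longer TGATTTAT or ATAAATCA, which contains the shorter motif, stood in 0.54%, 0% and 0.794% and TGACGTCA in 2.41%, 3.89% and 3.97%. These counts of letters are a description of a short window and say nothing of binding.

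Endogenous Hox genes changed unevenly in iHoxc10 neurons. Of 15 genes of paralog groups 1 to 5, Hoxb5 and Hoxc4 rose and Hoxb1 fell, against 2 and 1 in control neurons. Hoxc5 read 55.1, 60.7 and 62.6 CPM in iHoxc10 neurons, between the day 2 values of 28.9 to 41.1 CPM and the control values of 204, 192 and 191 CPM (difference from control -1.72 ± 0.15, edgeR adjusted p = 6.12e-08). Hoxb4, at 49.3, 61.8 and 67.8 CPM, was below day 2 and control alike, which held 75.7 to 97.8 and 120 to 147 CPM. In iHoxc9 neurons the corresponding levels were 1.51 to 2.38 CPM for Hoxc5 and 12.2 to 14.7 CPM for Hoxb4. Compared with iHoxc9, 14 of the 15 genes were higher in iHoxc10 and none lower. Against control, 1 of the 15 was higher and 2 were lower. Summed over the 15 genes, the level was 287.8 to 338.6 CPM in iHoxc9, below 845.7 to 950.8 CPM at day 2. The sum was 1335, 1470 and 1601 CPM in iHoxc10 and 1608 to 1704 CPM in control neurons. The study reports that induced Hoxc9 repressed anterior Hox genes.

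Among 11 tested genes of groups 6 to 9, 5 rose under HOXC10 and 6 in control neurons, and 3 were higher in iHoxc10 than in control. Hoxc6, a brachial gene, read 49.4, 49.4 and 43.1 CPM in iHoxc10 neurons against 5.17, 2.58 and 1.80 CPM in control, 1.96 to 2.33 CPM in iHoxc9 and 0.168 to 0.375 CPM in day 2 libraries. The difference from control was 3.88 ± 0.26 (edgeR adjusted p = 8.43e-10). Hoxa6 read 8.93, 11.6 and 6.56 CPM against 0.693 to 1.96 CPM in control neurons, and Hoxd8 4.03, 3.69 and 2.88 CPM against 0.289 to 0.449 CPM. Of groups 10 to 13, 6 of 12 genes were tested and the induced Hoxc10 was the one that rose. Among cofactors, Pbx3 rose to 347, 286 and 265 CPM from 36.1 CPM and was higher than control at 142 CPM, while Meis3 rose to 195, 182 and 230 CPM without a difference from control past the test (edgeR adjusted p = 0.374).

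**Figure D4:**
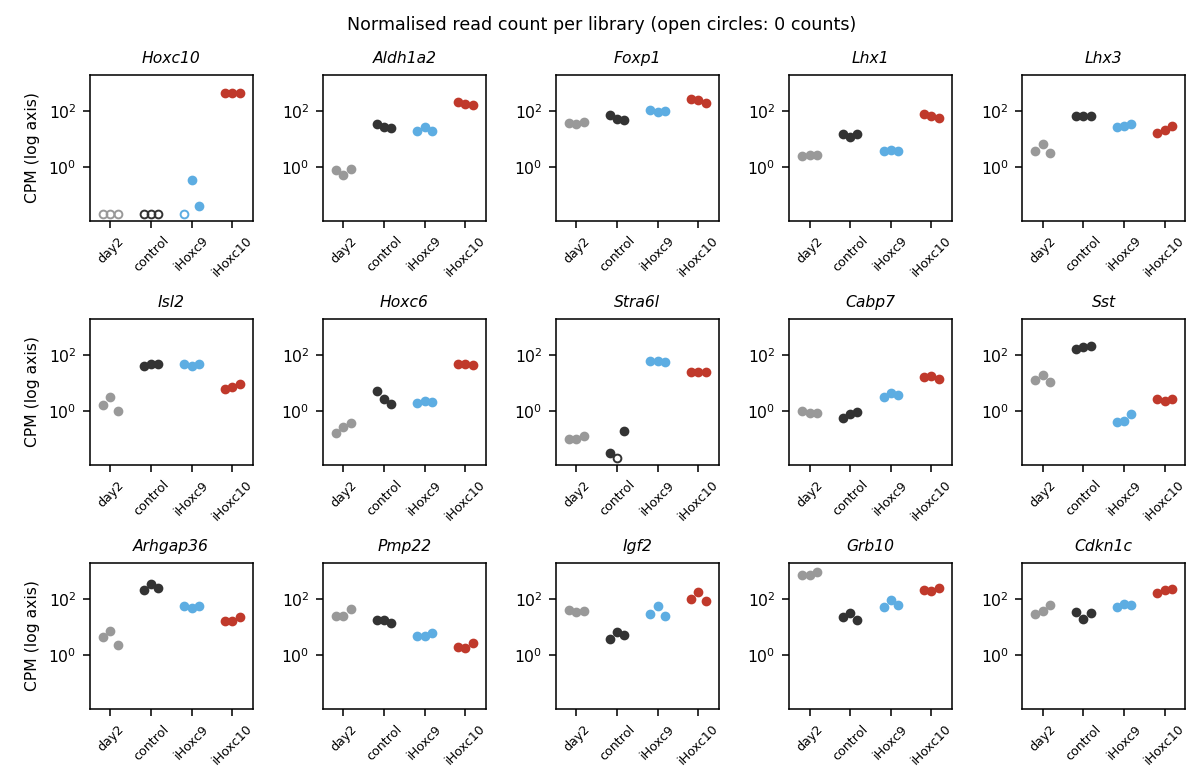
Normalised CPM of 15 genes in each day 2, control, iHoxc9 and iHoxc10 library on a log axis, 3 points per group, open circles marking 0 counts. The iHoxc10 points stand above the other groups for Aldh1a2 (163 to 203 CPM), Foxp1, Lhx1, Hoxc6 and Cdkn1c, below the control points for Isl2, Lhx3 and Arhgap36, and at 2.19 to 2.66 CPM for Sst.

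Beyond Hoxc10 and Stra6l, the genes that rose under HOXC10 and not in control neurons were led by Tmem255a, Adamts19, Cabp7, Tnfsf13b, Rapgef4, Fstl4, Igf2os and Pde11a. Tmem255a read 37.4, 40.8 and 25.9 CPM in iHoxc10 neurons against 2.12, 1.08 and 1.42 CPM in control, and 23.2 to 29.2 CPM in iHoxc9 neurons overlapped with iHoxc10. Cabp7, a calcium-binding protein gene, read 16.9, 17.7 and 14.4 CPM against 0.578 to 0.898 CPM in control and 0.843 to 1.01 CPM at day 2 (difference from control 4.45 ± 0.23, edgeR adjusted p = 9.22e-12). Its levels in iHoxc9 neurons, 3.09 to 4.24 CPM, were lower (difference 2.15, edgeR adjusted p = 6.93e-08). Fstl4 and Rapgef4, the latter a cAMP-activated exchange factor, read 3.68, 4.48 and 3.16 CPM and 2.56, 3.08 and 1.5 CPM, where control neurons held at most 0.308 and 0.225 CPM. The cytokine gene Tnfsf13b and the phosphodiesterase gene Pde11a reached 1.54 to 1.76 and 2.47 to 2.66 CPM. Fstl4, Rapgef4 and Tnfsf13b were not distinguished from iHoxc9 (edgeR adjusted p = 1.0, 1.0 and 0.0945), but Tnfsf13b was with the replicate block (edgeR adjusted p = 0.000334).

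Among the 399 genes that fell under HOXC10 and not in control neurons, Sst was the extreme case and one of 2 genes called in opposite directions. Day 2 progenitors held 13.3, 18.8 and 11.0 CPM, control neurons rose to 166, 199 and 220 CPM, and iHoxc10 neurons fell to 2.66, 2.19 and 2.59 CPM. The difference from control was -6.30 ± 0.24 (edgeR adjusted p = 6.98e-14). Levels in iHoxc9 neurons were lower again, at 0.391, 0.441 and 0.756 CPM. Pmp22, a myelin membrane protein gene, read 1.86, 1.76 and 2.63 CPM in iHoxc10 neurons against 18.1, 17.9 and 14.4 CPM in control and 24.9 to 42.6 CPM at day 2, with 4.71 to 6.13 CPM in iHoxc9 neurons and no overlap between the groups.

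The other leading falls were of low genes. Hbb-y and Hbb-bh1, embryonic globins, were at 0.070 to 0.365 and 0.107 to 0.284 CPM in iHoxc10 neurons, and their day 2 values ranged from 0.562 to 5.66 and from 0.562 to 4.96 CPM with day 2 replicate 3 the lowest. Gfi1 and Ikzf1, transcription factors of blood cells, had day 2 means of 1.63 and 1.48 CPM, with 3 counts of Gfi1 left over the iHoxc10 group. Mobp, 1700042O10Rik, the small nucleolar RNA gene Snord65 and Rpph1, the RNA of RNase P, made up the rest. Rpph1 shares 73.0% of its exon bases with Ccnb1ip1, so its reads cannot be assigned with certainty. Several of these calls rested on single libraries. The difference of Gfi1 from control had an edgeR adjusted p of 0.0106 without iHoxc10 replicate 1, that of Snord65 one of 0.0221 and 0.0122 without control replicate 3 and iHoxc10 replicate 2, and that of Hbb-bh1 one of 0.0106 to 0.0257 without control replicate 2 or any iHoxc10 replicate. The difference of Rpph1 had one of 0.0171 to 0.0340 without control replicate 1 or 3 or any iHoxc10 replicate, and its fall from day 2 one of 0.0131 to 0.0481 without day 2 replicate 2 or iHoxc10 replicate 1 or 3.

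The reverse pattern was a change called in control neurons and not called in the same direction under HOXC10, where a smaller change was possible. It was led by Sst, Cga, Spp2, Arhgap36 and 1700024G13Rik among the 47 and by Igf2, Adamts19, Hprt, Grb10 and a gene without a symbol among the 21. Arhgap36, a GTPase-activating protein gene of the Hedgehog and protein kinase A pathways, rose in control neurons from 2.31 to 7.32 CPM to 211, 363 and 246 CPM. It reached 17.0, 16.8 and 22.2 CPM in iHoxc10 neurons, a log2 fold change of 1.99 that lies just under the threshold, and 48.6 to 58.9 CPM in iHoxc9 neurons (difference of iHoxc10 from control -3.87 ± 0.27, edgeR adjusted p = 1.25e-09). The other gene called in opposite directions, Adamts19, a secreted metalloprotease gene, read 0.573 to 0.906 CPM at day 2, 0.193, 0.231 and 0.0374 CPM in control neurons and 3.22, 4.66 and 2.71 CPM in iHoxc10 neurons. Its difference of 4.48 ± 0.39 between iHoxc10 and control (edgeR adjusted p = 4.67e-08) was not matched by one against iHoxc9 at the threshold (edgeR adjusted p = 0.0817), while with the replicate block iHoxc10 was lower than iHoxc9 by 0.73 on the log2 scale (edgeR adjusted p = 5.48e-08).

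Several imprinted genes were higher under HOXC10 than in control neurons. The growth factor gene Igf2 read 39.9, 34.6 and 37.0 CPM at day 2, 3.79, 6.78 and 5.02 CPM in control neurons and 103, 178 and 85.2 CPM in iHoxc10 neurons (difference from control 4.56 ± 0.32, edgeR adjusted p = 1.85e-09). Igf2 shares 64.5% of its exon bases with Igf2os and Gm49394, and the strand setting of the counting is not given in the sources used here, so the rise of Igf2os to 4.17, 8.42 and 3.57 CPM cannot be separated from that of Igf2. Grb10, an adaptor that restrains growth signalling, read 743, 741 and 947 CPM at day 2, 23.1, 32.9 and 18.5 CPM in control and 221, 200 and 247 CPM in iHoxc10 neurons. Dlk1, a Notch-related ligand, read 50.3, 47.3 and 46.7 CPM against 4.85, 10 and 6.40 CPM in control neurons. In contrast H19, Ndn, Nnat, Magel2 and Snrpn rose in both kinds of neuron. Over 22 imprinted genes 7 rose and 2 fell under HOXC10, against 7 and 4 in control neurons, with 6 higher and 3 lower than control. Igf2, Grb10 and Dlk1 were at 25.8 to 55.3, 52.1 to 94.9 and on average 58.7 CPM in iHoxc9 neurons, also above control. Hprt, the locus that carries the transgenes, read 5.72 to 7.15 CPM at day 2, 1.25, 2.23 and 1.35 CPM in control and 17.7, 16.9 and 19.6 CPM in iHoxc10 neurons.

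Of 13 Hedgehog pathway genes, Shh rose and 5 fell, namely Gli1, Gli2, Gli3, Hhip and Gas1, against 1 and 4 in control neurons. Gli1, a direct readout of the pathway, read 111, 108 and 103 CPM at day 2, 9.28, 17.5 and 8.05 CPM in control neurons and 4.34, 3.19 and 4.34 CPM in iHoxc10 neurons (difference from control -1.55 ± 0.26, edgeR adjusted p = 0.000188). Of 22 retinoid genes, 5 rose and 5 fell, against 3 and 3 in control neurons. With the correction for exon length, 3 fell under HOXC10. The fall of Aldh1a3 was not past the test without day 2 replicate 2 or 3 or any iHoxc10 replicate (edgeR adjusted p = 0.0135 to 0.022). Cyp26a1, the RA-degrading enzyme, read 20.5, 41.4 and 29.0 CPM in iHoxc10 neurons, below 100 to 129 CPM at day 2 and 111 to 148 CPM in iHoxc9 but above 7.42, 4.16 and 6.03 CPM in control neurons. Rxrg, a retinoid receptor gene, rose to 6.41, 6.02 and 6.56 CPM, against 26.9, 23.8 and 27.6 CPM in control. The RA-binding protein gene Crabp2 fell from 1380 to 273, 203 and 320 CPM. Of 45 Wnt, BMP and FGF genes, 7 rose and 7 fell, against 6 and 8 in control neurons. Bmp7 was among those that rose and reached 104, 103 and 95.5 CPM from 15.7 CPM, against a control mean of 32.5 CPM. Over all genes tested, 9.13% rose and 9.59% fell under HOXC10.

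Genes of axon guidance and adhesion were mostly higher where they differed from control. Of 39 guidance genes, 19 rose and none fell under HOXC10, against 13 that rose and 1 that fell in control neurons, and 17 were higher and 1 lower in iHoxc10 than in control. Over all genes tested, 6.67% were higher and 7.75% lower than control by that rule. Of the 17, Efna3, Efnb3, Robo3, Dcc and Plxna1 were not past the test without certain single libraries (edgeR adjusted p up to 0.0597). Nrp1, a semaphorin receptor gene, read 232, 208 and 167 CPM against a control mean of 64.3 CPM and a day 2 mean of 11.9 CPM, with an iHoxc9 mean of 188 CPM (difference from control 1.66 ± 0.18, edgeR adjusted p = 7.85e-07; from iHoxc9, edgeR adjusted p = 0.816). Epha7, an ephrin receptor gene, read 27.8, 24 and 19.6 CPM against 4.38 to 6.49 CPM in control and 4.56 to 5.12 CPM at day 2. Ephb1 read 104, 91.7 and 98.4 CPM against a control mean of 31.6 CPM and was higher than iHoxc9 at 57.9 CPM (edgeR adjusted p = 0.00244, and 0.0149 without iHoxc10 replicate 1). The semaphorin Sema3d was the one lower than control, at 10.2, 6.81 and 7.21 CPM against a mean of 36.3 CPM.

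Of 22 cadherins and protocadherins, 12 rose against 7 in control neurons, and 11 were higher than control. Of the 11, Cdh4, Cdh9, Pcdh11x and Pcdh17 were not past the test without certain single libraries (edgeR adjusted p up to 0.0357). Cdh8 read 7.63, 7.49 and 8.39 CPM against means of 1.47 CPM in control and 0.82 CPM at day 2, Cdh12 6.34, 4.87 and 4.25 CPM against 0.783 CPM, and Pcdh7 92.2, 78.0 and 54.9 CPM against 23.9 CPM. Cdh1, epithelial cadherin, fell from 41.1 CPM to 0.910, 0.860 and 1.26 CPM and was the one lower than control, at 4.09 CPM (edgeR adjusted p = 0.00237, and 0.0139, 0.0154 and 0.0151 without control replicate 2, iHoxc10 replicate 1 or iHoxc10 replicate 2). Of 12 neurotrophic receptor genes, 6 rose against 3 in control, and 6 were higher than control with none lower. The differences of Ngfr and Gfra2 from control were not past the test without certain single libraries (edgeR adjusted p up to 0.0391). Ntrk2, which encodes the BDNF receptor TRKB, read 31.5, 30.5 and 21.4 CPM against 5.94, 5.16 and 4.08 CPM in control, and 66.7 to 91.5 CPM in iHoxc9 neurons. Met, the HGF receptor gene, read 35.2, 32.6 and 20.5 CPM against 8.64 CPM in control.

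Peptides, transmitters and temporal factors followed with smaller groups. Of 20 neuropeptide and granin genes, 10 rose and 2 fell, Sst and Penk, against 11 and 1 in control neurons. Npy, neuropeptide Y, read 7.21, 10.5 and 9.24 CPM in iHoxc10 neurons and between 1.10 and 1.73 CPM in control and iHoxc9 neurons (difference from control 2.59 ± 0.28, edgeR adjusted p = 1.02e-06). Of 16 glutamatergic, GABAergic and glycinergic genes, 5 rose, against 3 in control neurons. The vesicular glutamate transporter Slc17a6 was at 0.595, 0.681 and 0.405 CPM in iHoxc10 neurons and 11.9 CPM on average in iHoxc9. None of the 16 genes, Slc17a6 among them, was lower in iHoxc10 than in control neurons past the test, and 4 were higher. Of 12 temporal factors of spinal neurons, 6 rose and Nfix fell, against 3 and 1 in control neurons, with 4 of the 12 higher than control. Nfib, of later-born neurons, read 13.1, 10.1 and 7.45 CPM against 4.14, 1.89 and 1.57 CPM in control, and 9.95 to 15.0 CPM in iHoxc9 neurons overlapped with iHoxc10.

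Of 20 neural stem cell factors, Sox9 and Fabp7 rose and Sox1, Hes5, Id1, Id3 and Dll4 fell, against 2 and 2 in control neurons. Hes5, a Notch target of progenitors, read 7.6, 6.48 and 10.2 CPM in iHoxc10 neurons against 24.1, 28.8 and 18.1 CPM in control and 49.3, 43.3 and 22.6 CPM at day 2, with no overlap of iHoxc10 with either. Of 12 proneural factors, 2 rose, Neurog3 and Nhlh2, and 1 fell, against 2 and 0 in control neurons. Neurog3, an early neurogenic factor, had 3 counts over the day 2 group and read 7.84, 10.2 and 5.83 CPM in iHoxc10 against 2.99, 1.89 and 2.17 CPM in control neurons. Among 8 trunk axial genes, Gdf11, a growth factor gene of axial patterning, was the one that rose, to 88.7, 79.5 and 99.1 CPM from a mean of 18.2 CPM. In control neurons 1 of the 8 rose as well. Of 20 stress and heat shock genes, Jun rose and Hspb1, Atf3 and Egr1 fell, against 1 and 1 in control neurons. Atf3, Atf4, Trib3 and Bax were lower than in control neurons with none higher. The calls of Atf4, Trib3 and Bax against control were lost on leaving out single libraries (edgeR adjusted p up to 0.0256, 0.0175 and 0.0937), and with the correction for exon length 1 of the 20 was lower.

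Differences between iHoxc10 and control neurons moved with exon length. Across 12783 genes at a mean of 1 CPM or more, the log2 fold change of iHoxc10 over control correlated with exon length at a Spearman rho of 0.432, a description over genes that share libraries and are not independent. The median over genes went from -0.545 in the shortest of 10 length bins, of median exon length 1164 bases, to 0.354 in the longest, of 12772 bases. The rho was 0.182 for iHoxc10 over day 2, 0.009 for control over day 2 and -0.02 for iHoxc10 over iHoxc9, the pair from a single run. Median exon length was 6045 bases for the 354 genes that rose and 2387.5 bases for the 399 that fell, against 3730 for all genes. With an exon length trend removed, an alternative added after the data were seen, 335 and 289 genes fulfilled the rules, with 266 and 224 of the original 354 and 399 among them. Among list counts, 1 neuropeptide gene then fell in place of 2, 2 sensory markers rose in place of 1, and 2 guidance and 5 imprinted genes were lower than control in place of 1 and 3. Stra6l, Aldh1a2, Foxp1, Lhx1, Hoxc6, Sst and Pmp22 then had log2 differences from control of 8.09, 2.89, 1.67, 2.25, 4.08, -5.60 and -2.81, with edgeR adjusted p of at most 2.89e-08.

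**Figure D5:**
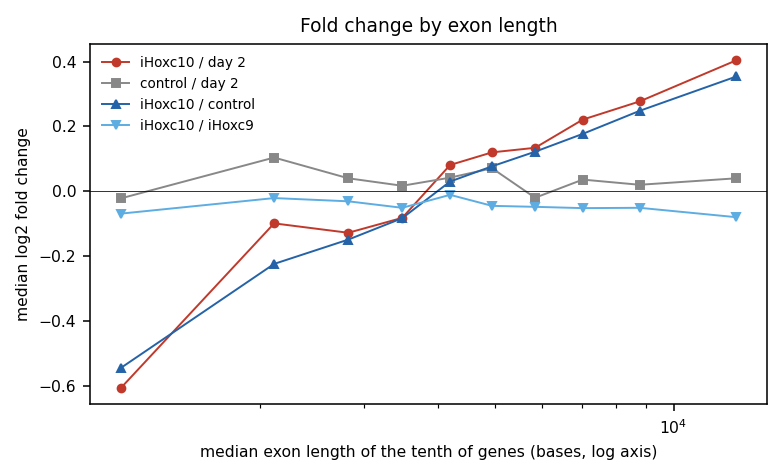
Median log2 fold change in 10 bins of 12783 genes ordered by exon length (x axis, bases, log scale) for 4 comparisons. iHoxc10 over control climbs from -0.545 to 0.354 and iHoxc10 over day 2 from -0.607 to 0.404, while control over day 2 and iHoxc10 over iHoxc9 stay between -0.08 and 0.104.

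Of 32 cytosolic ribosomal protein genes, 4 fell from day 2 (Rpl5, Rpl30, Rps18 and Rps24), and 29 were lower in iHoxc10 than in control neurons with none higher. Their summed level was 18290, 18780 and 23480 CPM in iHoxc10 and 20690, 22580 and 24610 CPM in iHoxc9 neurons of the same run, and 21760 to 28570 CPM in the iHoxc8 libraries of another run, against 30740 to 50830 CPM in control neurons and 40870 to 57900 CPM at day 2. None of the 32 passed the test between iHoxc10 and iHoxc9 in the fit of all libraries, and 15 were lower in iHoxc10 with the replicate block. Of 30 nuclear genes of the respiratory chain, 11 were lower than control and none higher. With the length trend removed, these counts became 19 of 32 and 4 of 30. Of 36 Polycomb and chromatin regulators, 8 were higher and 1 lower than control, which became 1 and 0. The part of run and transcript length in the other differences from control was not tested.

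Markers of other cell types that such cultures can hold were examined last. Of 10 tested endoderm markers, 4 fell and none rose, with Sox17 at 0 in all iHoxc10 libraries and a summed level of 26.5 to 47.3 CPM, against 47.4 to 110 CPM at day 2 and 32.3 to 40.4 CPM in control neurons. The 12 mesoderm and muscle markers summed to 3.77 to 4.44 CPM in iHoxc10 and 8.08 to 12.5 CPM in control neurons, with Myod1 at 0, 4 lower than day 2 and 5 lower than control. The 5 became 3 with the exon length trend removed, and the differences of Actc1 and Twist1 from control were not past the test without certain single libraries (edgeR adjusted p up to 0.0629 and 0.0583). The 11 endothelial and blood markers summed to 1.86 to 2.31 CPM, against 4.40 to 8.93 CPM in control neurons and 4.12 to 9.72 CPM at day 2, and Gata1, Ptprc and Cx3cr1 had no count in iHoxc10 neurons. The 8 neural crest and Schwann markers summed to 6.234 to 6.725 CPM in iHoxc10 neurons, below 6.756 to 8.746 CPM at day 2, and to 4.604 to 6.425 CPM in control neurons. Their median log2 fold change from day 2 to iHoxc10 was -0.46. Of the 8, 3 rose, and 1 was lower at the adjusted p alone. Sox10, Foxd3 and Tfap2b rose from at most 0.0937 CPM at day 2 to means of 1.07, 1.3 and 0.379 CPM (Tfap2b not past the test without day 2 replicate 1 or iHoxc10 replicate 1, edgeR adjusted p = 0.0124 and 0.0101). The 8 sensory neuron markers summed to 32.7 to 34.9 CPM, within the control range of 28.2 to 44.5 CPM, with 1 that rose, Runx1, and 2 that fell, among them Runx3 (not past the test without day 2 replicate 1 or 3, control replicate 1 or any iHoxc10 replicate, edgeR adjusted p = 0.0102 to 0.0342). The 10 astrocyte and oligodendrocyte markers summed to 135 to 166 CPM, above the control range of 87.8 to 110 CPM, and most of it was Mbp, at 154, 122 and 154 CPM, while Gfap was at 0. Of the 11 endothelial and blood markers, which include the globins Hba-a1 and Hba-a2, 2 fell from day 2 and none rose. Whether the fall of Hbb-y, Hbb-bh1, Gfi1 and Ikzf1 has to do with such cells was not tested.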

How the data were processed

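Poly(A)+ RNA of 18 libraries, 3 for each of 6 groups, was sequenced as single-end reads. Per the labels and the methods of the study, the authors aligned reads to mm10 with STAR 2.7.0c and counted them with featureCounts in RefSeq genes merged by Entrez ID. The deposited values are raw counts per gene, and the strand setting of the counting is not given in the sources used here. Counts were tested as deposited with edgeR 4.0.16 (quasi-likelihood test, TMM, Benjamini-Hochberg adjustment) in R 4.3.3, in one fit of the 18 libraries over the 20944 genes detected by 1 or more counts in any Hox-induced library. A gene was called against day 2 at an adjusted p under 0.01 and an absolute log2 fold change above 2. Counts of genes that differ from control or iHoxc9 used the adjusted p alone. A gene changed in iHoxc10 and not in control when it was called in the first, not called in the same direction in the second, and iHoxc10 differed from control in that direction. CPM are counts divided by TMM-scaled library sizes. Depth was 24498630 to 33168533 counts per library, and intervals and floors cover counting error only.

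Named genes were Hoxc10, the 10 largest rises and falls at 5 CPM or more without overlap of libraries, the 10 largest in each direction of the genes changed in iHoxc10 and not in control (1 CPM or more), 5 in each direction of the reverse, genes called in opposite directions, and members of 38 lists with 716 genes in all. Some genes of these lists are not reported here, and they stay in the counts of their lists. The members and lists were chosen with earlier results of these data known. Gene coordinates and promoter sequences are from RefSeq (GRCm38.p6) and exon lengths from GENCODE vM21 (GRCm38). On simulated counts of 20452 genes with 200 changed by a log2 fold of 3, for iHoxc10 against day 2, edgeR and DESeq2 1.42.0 recovered 100% and made 0 other calls. The changed genes were drawn above a mean of 1 CPM, the other groups were alike, and no line, run or exon length effect was simulated. The simulation therefore checks the calculation and not the calls near the floor or the threshold.

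Deviations of same-numbered libraries of day 2 and iHoxc10 correlated at r = 0.349, 0.042 and 0.205 over 13192 genes, and those of unlike-numbered ones at -0.283 to 0.083. For iHoxc9 and iHoxc10 the values were higher, at 0.465, 0.423 and 0.537, against -0.379 to -0.021. These are hints from the data rather than the labels. A replicate block was fitted for the latter pair, and over the 18 libraries as an alternative. Alternatives were DESeq2, other size factors, total counts, other filters, a fold threshold of 1, a fit on 3 groups, the replicate block, leaving out each library and, added after seeing the data, an exon length offset and the iHoxc9 and iHoxc10 libraries alone.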

Additional observations from a re-analysis of the deposited data

Results flagged for a closer look

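Sst and Adamts19 were called in opposite directions from day 2 in iHoxc10 and control neurons, and the direct test of the difference gave log2 values of -6.30 and 4.48 for iHoxc10 over control (edgeR adjusted p = 6.98e-14 and 4.67e-08). In Sst the 3 control libraries lay above and the 3 iHoxc10 libraries below every day 2 library. In Adamts19 the order was the reverse. Sets of genes also differed between the lines by the direct test, with 354 higher and 399 lower from day 2 in iHoxc10 and not in control neurons, and 47 higher and 21 lower in control and not in iHoxc10 neurons. These differences compare 2 engineered lines sequenced in separate runs, which cannot be told apart from the induction.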

How the results depend on the processing

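Of 1457 single-gene results past the threshold, 1155 stayed past it in the same direction under each of the 17 alternatives, 302 were lost in at least 1, and 2 changed sign, both with the exon length offset: Ndufa1 (iHoxc10 over day 2 0.53, edgeR adjusted p = 0.000188) and Sdhd (iHoxc10 over control 0.01, edgeR adjusted p = 1.0). Of 270 recomputed counts of genes, 244 lay within 1.5 times the reported one. A fold threshold of 1 gave 7715 genes changed from day 2 in iHoxc10 (3664 higher, 4051 lower), 5965 in control neurons, 1437 between iHoxc10 and control (593 higher, 844 lower), 678 lower in iHoxc10 and not in control, 101 higher and 51 lower in control and not in iHoxc10, and 189 list members lower. Fitting the day 2, control and iHoxc10 libraries alone gave 188 higher and 255 lower in iHoxc10 and not in control, and 12 lower in control and not in iHoxc10. DESeq2 gave 881 genes higher in iHoxc10 than in iHoxc9.

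Leaving out 1 library at a time gave 3644 to 3965 genes changed from day 2 in iHoxc10 (1815 to 1947 higher, 1829 to 2018 lower) and 2460 to 2704 in control neurons. Between iHoxc10 and control it gave 228 to 356 in place of 311 (124 to 182 higher, 89 to 209 lower, the 89 without iHoxc10 replicate 1). It gave 242 to 433 higher and 239 to 553 lower in iHoxc10 and not in control, 35 to 69 higher and 11 to 31 lower in control and not in iHoxc10, 193 to 206 list members higher and 100 to 111 lower, and 336 to 721 genes higher and 288 to 764 lower in iHoxc10 than in iHoxc9.

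With the replicate number as a block over the 18 libraries, 3801 genes changed in iHoxc10 (3791 shared with 3920), 2543 in control (2530 shared with 2630), and 346 and 394 in iHoxc10 and not in control (337 and 379 shared). In iHoxc9 and iHoxc10 fitted alone, the replicate block gave 2875 higher and 2932 lower and the same fit without it 1167 and 1062. The cause of these shifts was not tested. Scaling moved the median of all genes by at most 0.038 on the log2 scale. Depth limits genes near 3 counts.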
